A study of Mus musculus with 6 samples.

Results

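Secretory granules of the β cell are bounded by a membrane that carries transporters, receptor-like glycoproteins and electron carriers. These proteins load the lumen with zinc, monoamines and reducing power, and they take part in sorting, storage and release of the cargo. Insulin is stored as a zinc-bound crystal, so the zinc transporter of the granule is one of the best known markers of the β cell, and several of these membrane proteins are autoantigens in autoimmune diabetes. Here 10 genes of granule and vesicle membranes, of 19937 genes measured, were described on arrays of whole mouse islets. They were listed by name, and each was represented by 1 probe set that carries its symbol alone.

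RNA came from islets of 16-week-old mice that had received doxycycline for 24 hours. By their labels, the 3 control samples had the Ins2-rtTA transgene alone, while in the 3 Sox17-GOF samples tetO-Sox17 was combined with it, on a C57BL/6 background reached by backcrossing from an outbred stock. All 6 samples received the drug and, by these labels, shared the rtTA transgene. A legend of the study for Sox17-GOF mice describes its control mice as carrying tetO-Sox17 instead, without naming the array samples, so whether the groups also differed in rtTA is not settled by the sources used here. The Ins2 promoter restricts the transactivator to insulin-producing cells, whereas the arrays read every cell of the islet preparation. Whether a sample is 1 mouse or a pool was not given in the sources used here. Values are log2 expression, where a step of 1 means a doubling, and every difference is Sox17-GOF minus control.

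Array medians ranged from 6.31 to 6.41, and within a group the arrays correlated at 0.989 to 0.995 over the probe sets with a symbol. Sox17-GOF replicate 3 stood apart from the other arrays along the second principal component. Sox17 itself was higher on all 3 Sox17-GOF arrays (log2 fold change 0.67 with a standard error of 0.09, limma adjusted p = 0.00876). Islet hormones were abundant in both groups, with mean log2 levels of 13.09 and 13.07 for Ins2, 13.71 and 13.62 for Gcg, and 12.95 and 12.92 for Sst in control and Sox17-GOF islets. Markers of acinar cells were abundant as well. The mean log2 level of 6 acinar genes lay between 13.03 and 13.29 on control arrays and between 12.48 and 13.45 on Sox17-GOF arrays.

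Of the 10 genes, 3 were lower in Sox17-GOF islets by limma at an adjusted p under 0.05, 0 were higher and the other 7 missed that threshold. The genes that fell were Sv2a, Slc30a8 and Ptprn2. Among all 22961 probe sets with a gene symbol, 2.32% were lower and 2.61% higher at the same threshold. The 10 genes and the lists below were chosen with earlier results of these data known. Their shares beside these percentages are therefore a description and no test of the genes as a set. At an unadjusted p under 0.05, 4 of the 10 genes were lower and 0 higher, both by limma and by the methods' t-test, and the methods' t-test called none of them after adjustment. The share of all probe sets at an unadjusted p under 0.05 was not counted. Unadjusted counts, here and for the lists below, therefore have no background to be set against. The 4 genes at that level by limma were Sv2a, Slc30a8, Ptprn2 and Ica1. In each, all 3 Sox17-GOF arrays lay below all 3 control arrays, a pattern held by 13.8% of all named probe sets, while 11.1% had the groups apart in the other direction. The median log2 fold change was -0.05 over the 10 genes and -0.01 over all genes. Outside these 4 genes, the log2 fold changes lay between -0.08 and 0.11.

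**Figure D1:**
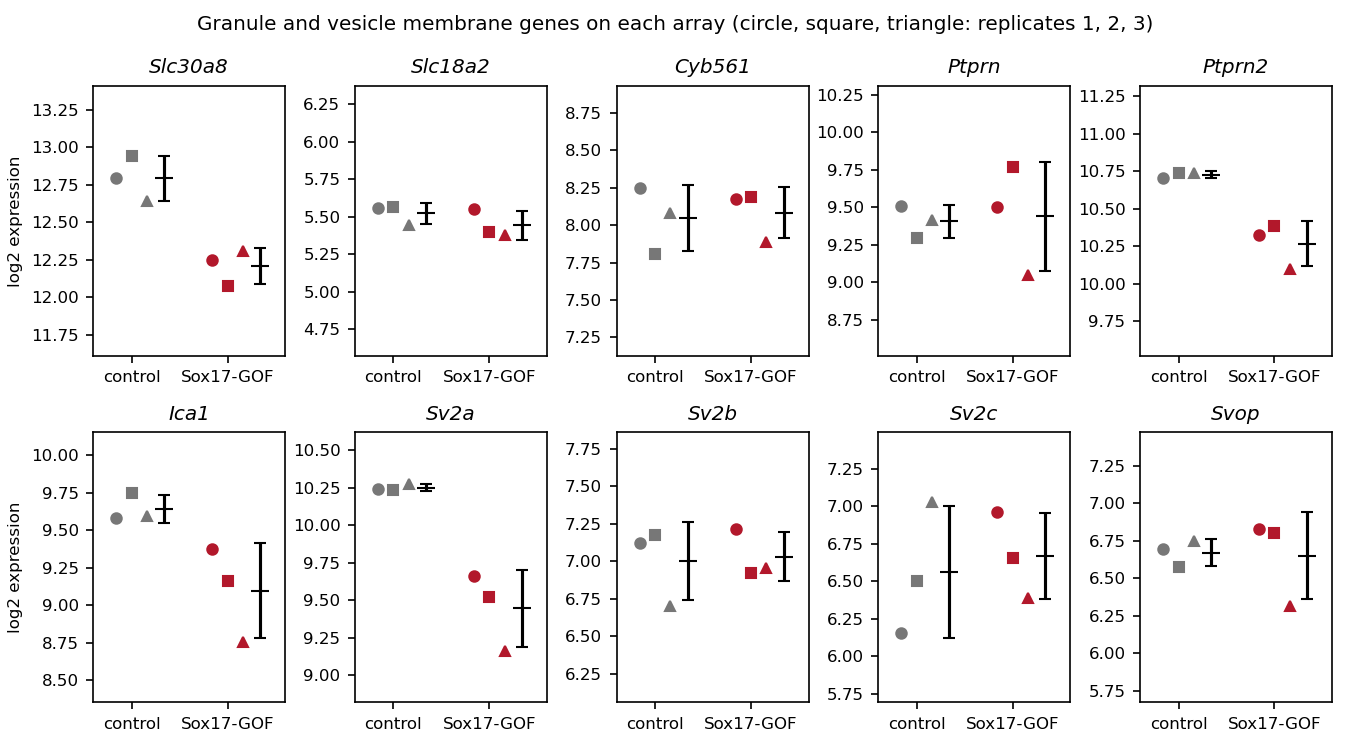
Log2 expression of the 10 granule and vesicle membrane genes on each array, with 3 control arrays in grey and 3 Sox17-GOF arrays in red; circles, squares and triangles are replicates 1, 2 and 3, and the black mark and bar are the mean and SD. Each panel spans the same log2 range. The groups are apart for Slc30a8, Ptprn2, Ica1 and Sv2a and overlap for the other 6 genes.

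The SV2 family is made of transporter-like glycoproteins that span the membrane of synaptic vesicles and dense-core granules many times. Sv2a, its most widely distributed form and the binding site of the antiepileptic drug levetiracetam, showed the largest decrease of the 10 genes. Its log2 level was 10.24, 10.23 and 10.27 on the control arrays and 9.66, 9.52 and 9.16 on the Sox17-GOF arrays. The control arrays lay within 0.04 of each other, whereas the Sox17-GOF arrays spanned 0.50 and the lowest of them was replicate 3. The log2 fold change was -0.80 (standard error 0.13, 95% interval -1.10 to -0.51, adjusted p = 0.0148 from limma), a 1.74-fold decrease. Without Sox17-GOF replicate 3 it was -0.66 (adjusted p = 0.0101). Leaving out control replicate 1, 2 or 3 ended the call, with adjusted p = 0.0609, 0.0675 and 0.0570, although the fold change stayed between -0.81 and -0.79.

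The other members of the family did not pass. Sv2b, a form best known from neurons, measured 7.12, 7.17 and 6.70 in control and 7.22, 6.92 and 6.95 in Sox17-GOF islets. These groups overlapped, and the 95% interval of the difference ran from -0.31 to 0.37. Sv2c, known as a receptor for botulinum toxin, measured 6.15, 6.50 and 7.03 in control and 6.96, 6.66 and 6.39 in Sox17-GOF islets. Control replicates 1 and 3 thus differed by 0.88, the widest spread within a group among the 10 genes, and the interval of the Sv2c difference was accordingly wide, from -0.43 to 0.64. Svop, which encodes a vesicle protein related to the SV2 family, ranged from 6.57 to 6.75 on control arrays and from 6.32 to 6.83 on Sox17-GOF arrays. Sox17-GOF replicate 3 was the lowest array for Svop, and the interval was from -0.36 to 0.31.

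Whether the paralogs changed by different amounts was asked within arrays, since the difference of a pair on the same array can be compared between the groups. Sv2a minus Sv2b was 3.25 ± 0.28 (SD, n = 3) in the control group and 2.42 ± 0.20 (SD, n = 3) with Sox17-GOF. Sv2a minus Sv2c was 3.69 ± 0.42 (SD, n = 3) and 2.78 ± 0.08 (SD, n = 3). For both pairs the groups were apart, and the difference changed by -0.83 and -0.91. Mean control levels were 10.25 for Sv2a, 7.00 for Sv2b and 6.56 for Sv2c, the latter near the array medians of 6.31 to 6.41. Whether probe sets at such unlike levels show a change equally was not tested. Sv2b minus Sv2c was 0.44 ± 0.68 (SD, n = 3) on the control arrays and 0.36 ± 0.18 (SD, n = 3) on those of Sox17-GOF islets, and the groups overlapped. The exact permutation test over the 6 arrays gave p = 0.10 for Sv2a against either paralog, the smallest p that 3 arrays against 3 allow, and p = 0.90 for Sv2b against Sv2c (two-sided; 0.133, 0.133 and 0.90 after adjustment over 4 pairs).

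Ptprn and Ptprn2 encode the receptor-type tyrosine phosphatase-like proteins of the granule membrane, which are without regular catalytic activity and are major autoantigens. Ptprn2, also named phogrin, measured 10.70, 10.74 and 10.74 in control and 10.33, 10.38 and 10.09 in Sox17-GOF islets. As for Sv2a, the control arrays lay within 0.04 of each other and Sox17-GOF replicate 3 was the lowest array. The log2 fold change of Ptprn2 was -0.46 (standard error 0.09, 95% interval -0.68 to -0.24, adjusted p = 0.0347 from limma), a 1.38-fold decrease. This call was near the threshold. Each of the 6 fits that omit 1 array lost it, with adjusted p between 0.0507 and 0.128.

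Ptprn measured 9.51, 9.29 and 9.41 in control and 9.50, 9.77 and 9.05 in Sox17-GOF islets. Here the highest and the lowest of the 6 arrays both belonged to the Sox17-GOF group, at replicates 2 and 3, and they spanned 0.72, against 0.21 for the control arrays. The 95% interval of the Ptprn difference was from -0.37 to 0.43. This interval overlapped that of Ptprn2, -0.68 to -0.24. Ptprn minus Ptprn2 was -1.32 ± 0.13 (SD, n = 3) on the control arrays and -0.83 ± 0.21 (SD, n = 3) on those of Sox17-GOF islets, a change of 0.49 with the groups apart (exact permutation p = 0.10, adjusted 0.133 over the 4 pairs).

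**Figure D2:**
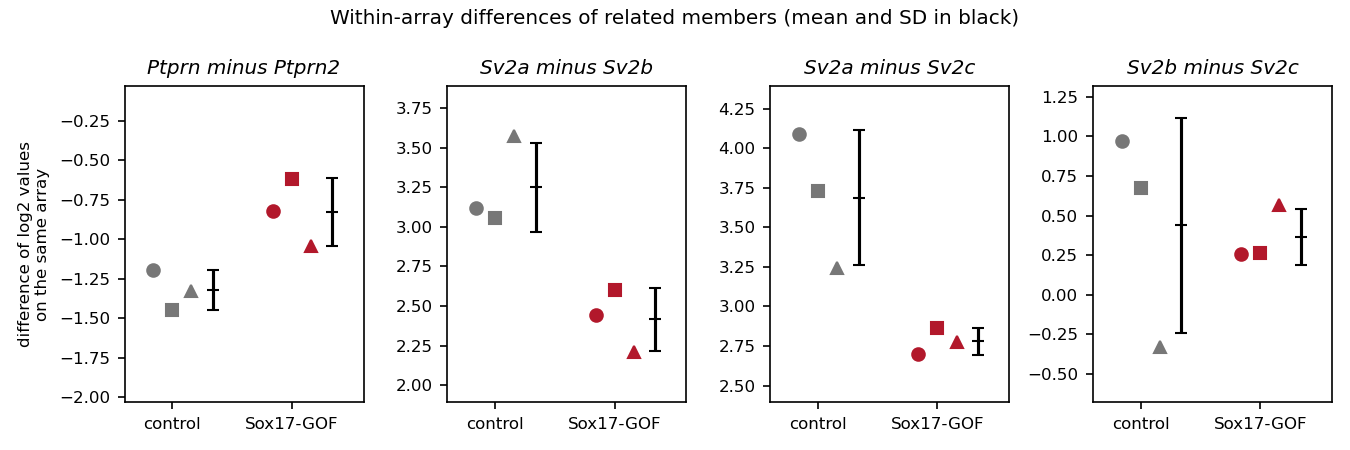
Difference of the log2 values of related genes on the same array (vertical axis) in control (grey) and Sox17-GOF (red) islets; symbols are replicates 1, 2 and 3 and the black mark and bar the mean and SD. Ptprn minus Ptprn2 is higher on all Sox17-GOF arrays, Sv2a minus Sv2b and Sv2a minus Sv2c are lower on all of them, and Sv2b minus Sv2c overlaps between the groups.

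The start regions of these paralogs are shown because the members that fell are paired with relatives that did not pass. Of the 10 genes, 7 had 1 or more windows of 250 bases before to 50 bases after a transcript start in the RefSeq table for GRCm38.p6, 12 windows in all. Slc30a8, Svop and Cyb561 had no window and were not searched. The letters ACAAT, the core bound by SOX factors, were searched on both strands and are in capitals. They occurred in 5 of the 12 windows, which belonged to Ica1, Sv2a and Sv2b, and in 31.0% of all 32851 windows of this length. Shown here are Sv2a (chr3:96180977-96181276, plus strand), windows 1 and 3 of the 4 windows of Sv2b (chr7:75309213-75309512 and chr7:75302560-75302859, both minus strand), Sv2c (chr13:96132528-96132827, minus strand), Ptprn2 (chr12:116485470-116485769, plus strand) and the first of the windows of Ptprn (chr1:75264159-75264458, minus strand).
Sv2a: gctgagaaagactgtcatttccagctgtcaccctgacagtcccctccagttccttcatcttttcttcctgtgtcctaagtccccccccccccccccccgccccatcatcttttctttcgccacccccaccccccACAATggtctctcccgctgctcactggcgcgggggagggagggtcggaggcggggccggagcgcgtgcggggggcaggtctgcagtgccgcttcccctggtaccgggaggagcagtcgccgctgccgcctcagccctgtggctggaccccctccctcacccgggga
Sv2b, window 1: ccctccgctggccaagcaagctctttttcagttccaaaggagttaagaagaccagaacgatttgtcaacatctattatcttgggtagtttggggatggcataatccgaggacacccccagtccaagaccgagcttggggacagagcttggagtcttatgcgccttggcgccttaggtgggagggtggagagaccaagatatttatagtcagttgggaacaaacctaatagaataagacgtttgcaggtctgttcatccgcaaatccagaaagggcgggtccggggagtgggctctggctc
Sv2b, window 3: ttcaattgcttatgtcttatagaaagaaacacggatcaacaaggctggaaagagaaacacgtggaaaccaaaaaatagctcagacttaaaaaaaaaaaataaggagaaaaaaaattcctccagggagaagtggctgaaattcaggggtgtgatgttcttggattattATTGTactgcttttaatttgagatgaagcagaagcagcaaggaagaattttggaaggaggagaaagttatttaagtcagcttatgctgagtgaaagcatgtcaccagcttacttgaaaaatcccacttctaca
Sv2c: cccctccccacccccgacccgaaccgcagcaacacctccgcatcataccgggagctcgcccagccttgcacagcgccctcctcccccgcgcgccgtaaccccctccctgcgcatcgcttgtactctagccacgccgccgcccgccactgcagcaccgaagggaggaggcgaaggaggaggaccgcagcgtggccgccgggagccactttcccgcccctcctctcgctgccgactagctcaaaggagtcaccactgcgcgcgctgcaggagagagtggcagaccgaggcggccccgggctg
Ptprn2: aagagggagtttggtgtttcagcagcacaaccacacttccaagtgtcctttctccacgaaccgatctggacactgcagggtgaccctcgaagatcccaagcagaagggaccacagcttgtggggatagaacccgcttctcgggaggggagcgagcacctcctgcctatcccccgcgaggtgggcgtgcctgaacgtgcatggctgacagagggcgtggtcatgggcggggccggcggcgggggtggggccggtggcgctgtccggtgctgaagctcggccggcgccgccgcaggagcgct
Ptprn: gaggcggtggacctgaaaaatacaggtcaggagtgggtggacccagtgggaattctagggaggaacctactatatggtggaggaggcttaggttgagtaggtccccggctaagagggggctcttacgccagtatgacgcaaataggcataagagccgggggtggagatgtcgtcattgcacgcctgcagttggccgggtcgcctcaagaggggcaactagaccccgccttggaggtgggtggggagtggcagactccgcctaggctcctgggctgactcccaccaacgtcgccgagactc
The window of Sv2a held 1 match, which begins 116 bases before the start, and windows 3 and 4 of Sv2b, a gene that did not pass, held 1 match each, beginning 83 and 79 bases before the start. Window 1 of Sv2b and those of Sv2c, Ptprn2 and Ptprn held none. The share of G and C was 68.0% for Sv2a, 71.7% for Sv2c, 66.0% for Ptprn2 and 60.3% for Ptprn, and 51.3% and 36.3% for windows 1 and 3 of Sv2b, against a median of 52.7% over all windows. The letters of the cAMP response element, TGACGTCA, were also searched on both strands. They were found in 1 of the 12 windows, that of Slc18a2, and in 1.79% of all windows. Such matches describe the sequence and are not binding sites.

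Slc30a8 encodes ZnT8, the transporter that moves zinc into the insulin granule. It measured 12.80, 12.94 and 12.64 in control and 12.25, 12.08 and 12.30 in Sox17-GOF islets. In contrast to Sv2a and Ptprn2, the spread was alike in both groups (SD 0.15 and 0.12), and the lowest array was Sox17-GOF replicate 2 while replicate 3 lay nearest to the controls. Its log2 fold change was -0.58 (standard error 0.10, 95% interval -0.83 to -0.34, adjusted p = 0.0238 from limma), a 1.5-fold decrease. The call was lost in the fits that omit control replicate 1, control replicate 2, Sox17-GOF replicate 1 and Sox17-GOF replicate 2 (adjusted p = 0.0867, 0.0914, 0.0514 and 0.0734). The other zinc transporters of the ZnT family held no gene past the threshold, 9 being measured, with 2 lower and 1 higher at an unadjusted p under 0.05. The largest decrease among them was that of Slc30a5, which moves zinc into the early secretory pathway (log2 fold change -0.36, 95% interval -0.61 to -0.10, adjusted p = 0.120).

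Ica1 encodes an islet autoantigen with a membrane-bending BAR domain that attaches to the Golgi complex and to immature granules. It measured 9.58, 9.75 and 9.60 in control and 9.38, 9.16 and 8.76 in Sox17-GOF islets. The groups were apart, but the arrays of the Sox17-GOF group spanned 0.62, with replicate 3 lowest. The log2 fold change of -0.55 (standard error 0.15, 95% interval -0.90 to -0.19) did not pass, with adjusted p = 0.0966 from limma. Without Sox17-GOF replicate 1 it was -0.69 (adjusted p = 0.0476), and without replicate 3 it was -0.38 (adjusted p = 0.116). Ica1l, the gene of the related protein, was higher. It measured 7.84, 7.77 and 8.02 in control and 9.03, 8.59 and 8.73 in Sox17-GOF islets (log2 fold change 0.91, standard error 0.13, adjusted p = 0.00924). That call ended without control replicate 2 (adjusted p = 0.0515). The difference between Ica1 and Ica1l was not tested.

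Slc18a2 and Cyb561 serve the chemistry of the granule lumen. Slc18a2 encodes the vesicular monoamine transporter, which fills granules with serotonin, dopamine and related amines. It measured 5.56, 5.57 and 5.44 in control and 5.55, 5.40 and 5.38 in Sox17-GOF islets. The groups overlapped and the interval was narrow, from -0.28 to 0.11. All these values lay below the array medians of 6.31 to 6.41. At so low a level the narrow interval cannot settle whether Slc18a2 decreased as Slc30a8 did. Cyb561 encodes the cytochrome that carries electrons across the granule membrane and keeps ascorbate reduced for peptide amidation. It measured 8.25, 7.81 and 8.08 in control and 8.17, 8.19 and 7.89 in Sox17-GOF islets, with an interval from -0.27 to 0.35. Pam, the amidating enzyme that uses this ascorbate, had a log2 fold change of 0.30 (adjusted p = 0.228).

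**Figure D3:**
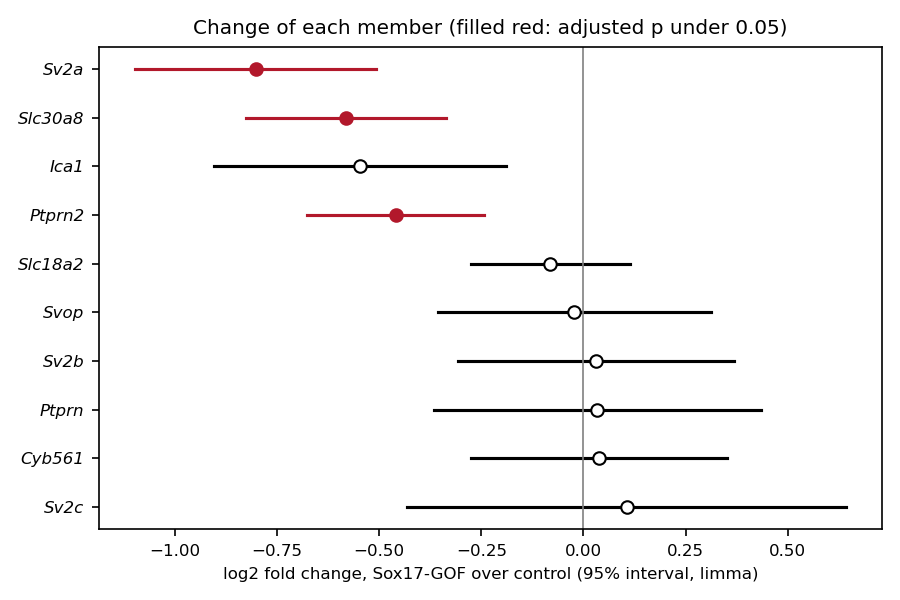
Log2 fold change of each gene in Sox17-GOF over control islets (horizontal axis, 3 arrays in each group) with its 95% interval from limma. Sv2a, Slc30a8 and Ptprn2, filled red, have an adjusted p under 0.05; Ica1 lies between them at -0.55 with a wider interval, and the other 6 genes lie between -0.08 and 0.11.

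Sox17-GOF replicate 3, the array that stood apart, was the lowest of all 6 arrays for 6 of the 10 genes, namely Slc18a2, Ptprn, Ptprn2, Ica1, Sv2a and Svop. The share of all probe sets that were lowest on this array was not counted. The count of 6 therefore cannot be read as a trait of these genes. Without Sox17-GOF replicate 3, the log2 fold changes of Ptprn2 and Ica1 were nearer to 0, at -0.37 and -0.38, and those of Ptprn and Svop were 0.23 and 0.14. On the same array, some markers of other pancreatic cells were high. Krt19, a keratin of duct cells, measured 9.13 there and 6.16 to 7.07 on the other 5 arrays, Muc1 measured 8.65 against 6.85 to 7.81, and Lum, a matrix protein of fibroblasts, 6.06 against 4.09 to 5.58. Not all markers of these lists were high there. Krt7 of the duct list measured 10.08, its lowest value, against 10.26 to 10.62 on the other 5 arrays. Acta2 and Col1a1 of the fibroblast list were highest on Sox17-GOF replicate 2. The mean log2 levels of the duct list, 8.06, and of the acinar list, 13.45, were the highest of the 6 arrays. The acinar mean lay between 13.03 and 13.29 on control arrays and was 12.48 on another Sox17-GOF array. No label sets Sox17-GOF replicate 3 apart. Without it, 2 of the 10 genes were lower, Sv2a and Slc30a8. Without control replicate 1, 0 of the 10 genes were called, and the same held without control replicate 2. Without control replicate 3, 1 was called, Slc30a8.

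**Figure D4:**
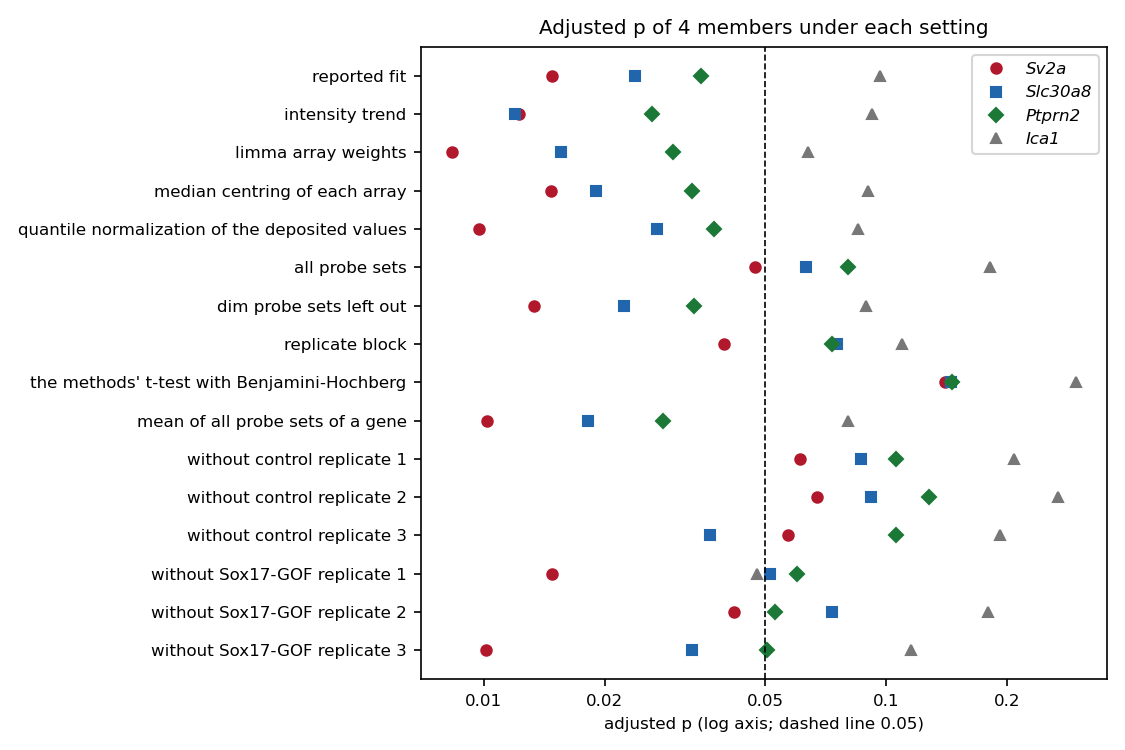
Adjusted p (horizontal log axis) of Sv2a, Slc30a8, Ptprn2 and Ica1 in the reported fit and under 15 other settings, among them each array left out in turn; the dashed line marks 0.05. Sv2a is past the line in 11 of the 15, Slc30a8 in 8, Ptprn2 in 6 and Ica1 in 1.

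The remaining machinery of granule membranes was read from 7 lists, of which 105 genes were measured. Of these, 3 fell, 2 rose and 100 missed the threshold, shares near those of all named probe sets given above, and the median log2 fold change was -0.01. The lists of other vesicular transporters (11 genes), other zinc transporters (9), tetraspan vesicle membrane proteins such as synaptophysin (12) and proton pump subunits (23) held no gene past the threshold by limma. At an unadjusted p under 0.05 their counts of lower and higher genes were 0 and 2, 2 and 1, 2 and 2, and 4 and 0. The proton pump acidifies granules and lysosomes and drives the uptake of zinc and amines, and its median log2 fold change was -0.04. By the methods' t-test over all 105 genes, 1 gene was lower after adjustment and 0 were higher, against 16 and 9 at an unadjusted p under 0.05.

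The list of monoamine synthesis, uptake and breakdown held 12 measured genes, of which 2 were lower and 10 did not pass. Th, tyrosine hydroxylase, the first enzyme of dopamine synthesis, measured 7.71, 8.05 and 7.98 in control and 7.02, 7.08 and 6.81 in Sox17-GOF islets (log2 fold change -0.94 with a standard error of 0.12, limma adjusted p = 0.00580). Gch1, which makes the pterin cofactor of that enzyme, measured 11.20, 11.15 and 11.37 in control and 10.56, 10.68 and 10.53 in Sox17-GOF islets (-0.65, standard error 0.09, adjusted p = 0.00876). The genes of amine synthesis that fell stood beside a transporter, Slc18a2, whose groups overlapped. Tph1 and Tph2, the enzymes that start serotonin synthesis, had log2 fold changes of 0.02 and 0.14 (adjusted p = 0.925 and 0.640). Their mean levels were 4.97 and 4.81 in control and 4.99 and 4.95 in Sox17-GOF islets. These lay little above 4.63, the level under which 20% of all values fell, so they cannot settle whether these genes changed. Maoa and Maob, which break amines down, had log2 fold changes of 0.43 and 0.48 (adjusted p = 0.0593 and 0.110). For both, the groups were apart with Sox17-GOF higher. Ddc of the same list had a log2 fold change of -0.26 (adjusted p = 0.161), with the groups apart and Sox17-GOF lower.

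Among 16 measured factors of granule biogenesis and partners of these membrane proteins, 2 were higher and 14 did not pass. Besides Ica1l this was Syt1, the calcium sensor synaptotagmin that SV2 proteins bind. Syt1 measured 7.25, 7.05 and 6.29 in control and 8.94, 8.85 and 8.61 in Sox17-GOF islets (log2 fold change 1.94, standard error 0.24, adjusted p = 0.00539), while Sv2a was lower by the same fit. Among 22 measured relatives of Ptprn and Cyb561, 1 was lower and 21 did not pass. That gene was Ptprj, a receptor tyrosine phosphatase (log2 fold change -0.42, standard error 0.07, adjusted p = 0.0160), and this call was lost when 1 of the 3 control arrays, or Sox17-GOF replicate 2, was omitted (adjusted p between 0.0554 and 0.0755).

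**Figure D5:**
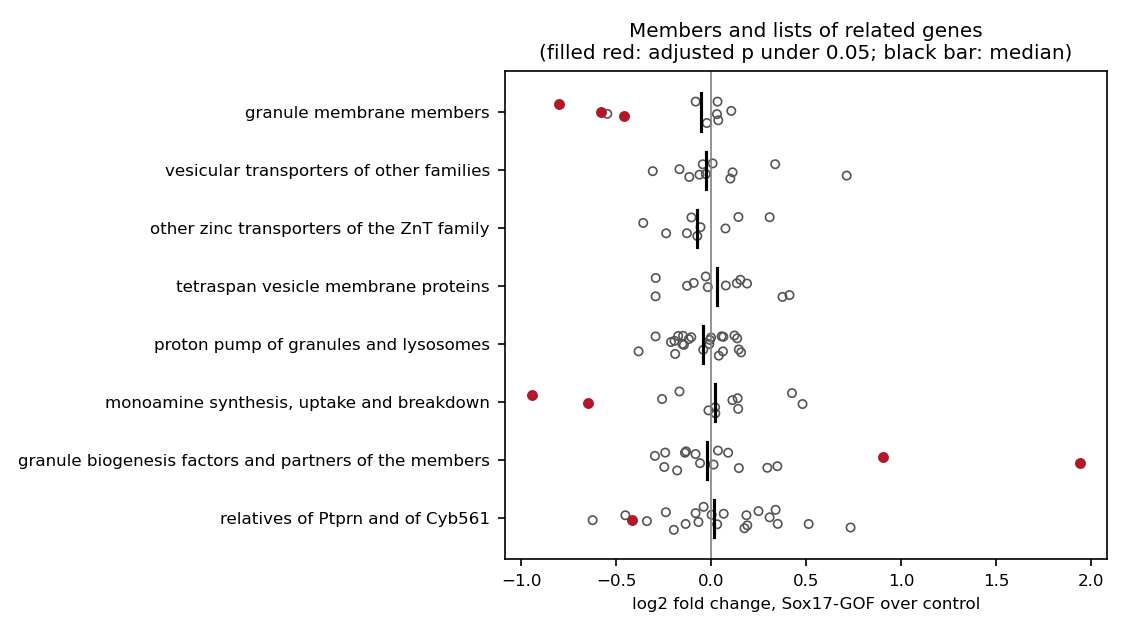
Log2 fold change in Sox17-GOF over control islets of the 10 granule membrane genes and of the genes of 7 related lists; circles are single genes, in solid red for an adjusted p under 0.05, and black bars give the medians. The medians all lie between -0.07 and 0.03, and the filled circles furthest from 0 are Syt1 on the right and Th on the left.

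Islets hold several cell types, and in whole islets fewer cells of a type and less RNA per cell cannot be told apart. Of 8 β cell markers, 4 were lower (Pdx1, G6pc2, Slc2a2 and Ucn3, with log2 fold changes of -0.47, -0.74, -1.01 and -1.03) and 4 did not pass, among them Ins2 (-0.01), Iapp (-0.09) and Mafa (-0.01). Ins2 and Iapp, at mean control levels of 13.09 and 13.50, lay near the array maxima of 14.14 to 14.22. Whether such bright probe sets can show a loss was not tested. The mean log2 level of the 8 genes lay between 10.87 and 10.90 on control arrays and between 10.37 and 10.51 on Sox17-GOF arrays, so it was lower together with Sv2a, Slc30a8 and Ptprn2. Of 6 endothelial markers, Kdr was lower (-0.68) and 5 did not pass. At an unadjusted p under 0.05, 2 of them were higher, Pecam1 (0.37, adjusted p = 0.110, groups apart) and Cdh5 (0.27, adjusted p = 0.215), and the mean level of the 6 overlapped, at 7.68 to 7.83 and 7.66 to 7.86. Of 5 genes of mast cells and enterochromaffin cells, Kit was higher (1.31), while the mast cell genes Cpa3 and Mcpt4 were dimmer than 4.63, the level under which 20% of all values fell. The call of Pdx1 was lost in all 6 fits that omit 1 array (adjusted p up to 0.113). That of G6pc2 was lost on omitting each control array in turn and Sox17-GOF replicate 1 (up to 0.0780), and that of Kdr on omitting control replicates 1 and 3 and Sox17-GOF replicate 2, each alone (up to 0.0599). The other 9 marker lists, with 43 genes of α, δ, PP and epsilon, acinar, duct, stellate, glial, neuronal and blood-derived cells, held no gene past the threshold, with 2 lower and 5 higher at an unadjusted p under 0.05. Of the higher ones, 3 were among the 7 genes of stellate cells and fibroblasts, namely Lum (1.17, adjusted p = 0.106), Acta2 (0.68, adjusted p = 0.0897) and Col1a2 (0.21, adjusted p = 0.238). All 7 log2 fold changes of that list were above 0, and its mean level was 6.29 to 6.77 on control and 6.66 to 7.31 on Sox17-GOF arrays. In the duct list the groups were apart for Krt19, with Sox17-GOF higher (1.32, adjusted p = 0.253), and for Krt7, with Sox17-GOF lower (-0.34, adjusted p = 0.0849). Cftr of the duct list and Cdh19 of the glial list were dimmer than 4.63. The part of cell composition in the values of the 10 genes was not tested.

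To place the genes that fell among all others, the genes whose log2 values, centred on their own mean, lay nearest over the 6 arrays were listed. For Slc30a8 they were Mical3, Vegfa and Lrpprc, with root mean square differences of 0.0175, 0.0175 and 0.0288. For Sv2a they were Amph, which encodes the vesicle recycling protein amphiphysin, Phactr1 and Nav2, at 0.0700, 0.0765 and 0.0775. For Ptprn2 they were Mga, Umps and Urb1, at 0.0272, 0.0374 and 0.0396. None of the other members was among these nearest genes. Only the 3 nearest of 19937 genes were listed for each, so this absence cannot show whether the members vary together. The likeness covers 6 arrays in 2 groups and includes the difference between the groups.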

How the data were processed

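Islet RNA of 3 control and 3 Sox17-GOF samples, which the methods call independent biological triplicates, was hybridized to Affymetrix Gene ST arrays for the mouse. The authors deposited log2 values computed with RMA, a method that subtracts background, equalizes the distributions of the arrays and combines probes into probe sets. A shift shared by most genes would therefore not be visible. GeneSpring is given for this in the methods, whereas Affymetrix Expression Console is listed in the processing notes. The values were used as deposited, with all 6 arrays.

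The genotypes were compared by linear models (limma 3.58.1, R 4.3.3, moderated with eBayes) over 22961 of 34760 probe sets. Of these, 21640 carried 1 gene symbol and 1321 several, and genes were named only from the former. The Benjamini-Hochberg adjustment ran over the full set, and the fit was tested on simulated data. The p-values measure the spread between these arrays, whose number limits the precision. All 10 genes lay above 4.63, the 20th percentile of the values. Differences of related genes within arrays were compared by the exact permutation test. The genes named are the 10 members, Sox17, up to 4 called genes of each of 7 related lists, the 3 genes nearest to Slc30a8, Sv2a and Ptprn2, and cell type markers. Pam, Slc30a5, Ddc, Maoa, Maob, Tph1 and Tph2 were named after their values were seen. The members and lists were chosen with earlier results of these data known. In 15 alternatives, each array was omitted in turn, the variance model (intensity trend or array weights), the scaling (array medians or quantiles), the probe sets tested (all, or without dim ones) and the summary of a gene (mean of its probe sets) were changed, and the replicate number was used as a block or the methods' t-test in place of limma.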

Additional observations from a re-analysis of the deposited data

How the results depend on the processing

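Fold changes of Sv2a (-0.91 to -0.66), Slc30a8 (-0.66 to -0.51), Ptprn2 (-0.52 to -0.37) and Ica1 (-0.69 to -0.38) kept their sign under all 15 alternatives. The count of 3 lower members was 1 with all probe sets tested and 1 with the replicate block, in both cases Sv2a, 0 with the methods' t-test after adjustment, and 0 to 2 when each array was left out; the count of higher members was 0 throughout. Fits that omit an array have fewer samples by construction. The count of lower genes in the 7 lists, 3, became 1 with the methods' t-test, 5 with array weights and 2 to 4 when each array was left out. The count of higher genes, 2, became 0 with the methods' t-test and 1 to 4 when each array was left out. Same-numbered arrays of the groups did not deviate together (correlations 0.05, -0.02 and -0.04), so the numbers were not taken to pair the samples. Over all named probe sets, 434 were higher and 286 lower with the replicate block, against 600 and 533 without it, 313 and 245 with all probe sets and 42 and 29 with the methods' t-test.

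Among the 10 genes and the 4 pairs, signs turned only for differences that did not pass. When each array was left out, the log2 fold change ranged from -0.080 to 0.14 for Cyb561, from -0.13 to 0.23 for Ptprn, from -0.12 to 0.12 for Sv2b, from -0.10 to 0.34 for Sv2c and from -0.11 to 0.14 for Svop, and the change of Sv2b minus Sv2c from -0.46 to 0.19. With array weights, Sv2b was -0.013 and Svop 0.035. The cause was not tested.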
